A study of Mus musculus with 17 samples.

Results

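The libraries described here hold RNA that was pulled down with tagged ribosomes from the cerebral cortex of healthy mice, read as the baseline of a study of experimental autoimmune encephalomyelitis (EAE), a mouse model of multiple sclerosis. They were chosen by their labels as the libraries of normal, disease-free mice, which are 8 of the 17 libraries of the series: 4 from male and 4 from female mice. No library of an EAE mouse was used and no groups were tested against each other. All 8 mice were NSE-Cre:RiboTag mice on the C57BL/6J background. In these mice Cre recombinase, made from a rat promoter of Eno2 (neuron-specific enolase), switches on a copy of the ribosomal protein Rpl22 that carries an HA tag, and the tag is used to capture ribosomes with the RNA that they carry. The tag therefore marks cells in which this Cre has acted, and any such cell that is not a neuron is tagged too. The controls had no EAE and were matched in age and sex to the EAE mice, which were adult. The mice were perfused with buffer and then with dilute paraformaldehyde before the cortex was taken.

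Neurons of the cortex fall into a large glutamatergic class, which excites its targets and is arranged in layers, and a smaller GABAergic class of interneurons, which inhibits them. Each class is set apart by the transporters and enzymes of its transmitter and by transcription factors, and the firing of all of them rests on ion channels and on receptors for glutamate, GABA and the modulatory transmitters. Ribosome capture enriches the RNA of tagged cells without purifying it, so RNA of astrocytes, oligodendrocytes and other cells of the tissue can be present. In such bulk RNA, fewer cells of a type and less RNA per cell cannot be told apart, and the RNA of the whole tissue was not analysed here.

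Library totals lay between 83664876 and 98433383 counts, so that 1 CPM (counts scaled to a library total of 1000000) corresponded to 83.7 counts in the smallest library. A count of 3, taken as the floor, was 0.0359 CPM there. CPM were used to compare libraries. Levels of different genes were compared as TPM, for which counts are divided by exon length and then scaled to the same total, and values given as ± are the SD over the 8 libraries. Of 34850 autosomal genes in the table with an annotation, 13305 (38.2%) had at least 1 CPM in every library, and so had 11880 of 20164 autosomal protein-coding genes (58.9%). Spearman's rho across genes was between 0.970 and 0.996 over the 28 pairs of libraries. The median gene with a mean of at least 1 CPM had a coefficient of variation of 14.4% between libraries, against 2.38% from counting error alone. Male library 4, and less so female library 2, stood apart on the first principal component, which held 53.8% of the variance (42.5 and 24.6, against -23.4 to 2.24 in the other 6 libraries). In male library 4 long genes were low and short genes high: its deviation from the mean changed by -0.109 on the log2 scale for each doubling of exon length, against -0.0538 in female library 2 and -0.0246 to 0.0776 in the others. Male library 4 also had a slope of 0.0698 for each 10 percentage points of G and C in a transcript. The slope was -0.0716 to 0.0684 in the other libraries. Male library 4 held the lowest value of 34.3% of the 14025 autosomal genes with a mean of at least 1 CPM. That share is the background for the counts of genes lowest in this library given below. The part of gene length or base composition in those counts was not tested.

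Neuronal RNA was abundant in every library. Rbfox3 (ENSMUSG00000025576, GRCm38 chr11:118489762-118911597), which encodes the nuclear protein NeuN, had 1456, 1269, 1373 and 1529.9 CPM in male libraries 1 to 4 and 1197, 1472, 1505 and 1304 CPM in female libraries 1 to 4. Snap25 (ENSMUSG00000027273, chr2:136713453-136782428), a membrane fusion protein of nerve terminals, had 5159, 5006, 4403 and 4229 CPM in male libraries 1 to 4 and 5387, 4578, 5762 and 5281 CPM in female libraries 1 to 4. These are levels far above the 1 CPM limit in each mouse, and the male and female ranges of both genes overlapped. Slc17a7 (ENSMUSG00000070570, chr7:45163949-45176142), which loads glutamate into vesicles and marks glutamatergic neurons of the cortex, had 1877, 1893, 1912 and 1428 CPM in male libraries 1 to 4 and 1786, 1721, 1747 and 2093 CPM in female libraries 1 to 4. Gad1 (ENSMUSG00000070880, chr2:70553072-70602014), which makes GABA and marks GABAergic neurons, had 58.4, 83.9, 57.3 and 49.8 CPM in male libraries 1 to 4 and 111, 46.9, 62.7 and 55.9 CPM in female libraries 1 to 4. Rbfox3, Snap25 and Slc17a7 therefore varied little between mice (SD of log2 CPM of 0.13, 0.16 and 0.16, where log2 CPM stands for log2(CPM + 0.1)), while Gad1 had an SD of 0.41 with its highest value in female library 1. All 4 markers of the labelled cell type were thus abundant or readily counted, and markers of other cell types, described further on, were present as well. Gad1 was near Aldh1l1, the lowest of the astrocyte genes described further on (TPM ratio 1.08 ± 0.598, above 1 in 4 of 8 libraries). All 18 genes of a pan-neuronal list had at least 1 CPM in every library, and none had an SD of 0.5 or more, the limit taken for a variable gene, which 439 of 14025 autosomal genes reached (3.13%).

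**Figure D1:**
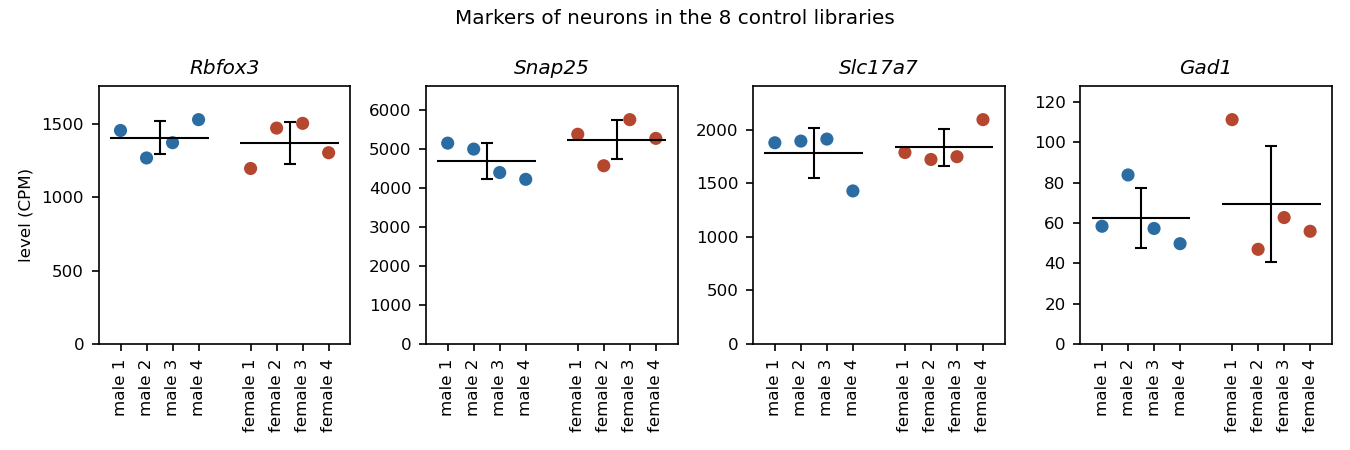
Level in CPM of the 4 marker genes in each of the 8 control libraries (points: blue male, red female; lines with bars: mean and SD of 4 libraries per sex). Gad1 reached 111 CPM in female library 1, against 46.9 CPM in female library 2.

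Per exon length, the most abundant autosomal protein-coding RNA was that of Nrgn, a calmodulin-binding protein of dendritic spines, with 21950.0 ± 2720.0 TPM. Nrgn had 11144, 8826, 10378 and 13432 CPM in male libraries 1 to 4 and 9315, 12784, 12985 and 9911 CPM in female libraries 1 to 4. Ptms (parathymosin, 5851 ± 880.2 TPM), Selenow (a selenoprotein, 5515 ± 1141 TPM) and the calmodulin gene Calm3 (5467 ± 379 TPM) came next. Among the 15 highest were also Camk2n1, an inhibitor of the calcium/calmodulin-dependent kinase CaMKII (4013 ± 477 TPM). Basp1, a membrane protein of growing axons (4194 ± 367 TPM), Eef1a2, the elongation factor of neurons and muscle (4045 ± 393 TPM), Cplx2, a complexin of nerve terminals (3252 ± 231 TPM), and Ctxn1, a small membrane protein of cortex (3664 ± 385 TPM), were further members. Apoe (5052 ± 817 TPM) and Glul (3746 ± 792 TPM), which are best known from astrocytes, and Cst3 (3148 ± 638 TPM), a secreted protease inhibitor, were in the same group. Cox8a (4803 ± 647 TPM), a subunit of the mitochondrial respiratory chain, and the predicted gene Gm11273 (3599 ± 324 TPM) were there too. Calm2, which encodes the same protein as Calm3, had 2368 ± 356 TPM. The 15th place stood at 3122 TPM and the next gene at 3071 TPM.

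Levels in TPM differed with the base composition and exon length of genes, and a few genes were counted at levels that need care. These relations were read over the 12382 autosomal protein-coding genes with a mean of at least 1 CPM. The median was 26.7 TPM in the fifth of genes richest in G and C and 7.89 TPM in the fifth that was poorest. Spearman's rho with level was 0.261 for GC content and -0.337 for exon length. It was -0.341 between GC content and exon length, so the parts of the 2 cannot be told apart here. None of these genes is an independent replicate. Near copies of a gene elsewhere in the genome could matter as well. Gapdh, a glycolytic enzyme and usual reference gene, was counted at only 0.603 to 1.148 CPM, and Ppia (4.64 to 7.96 CPM) and Rps18 (2.29 to 5.16 CPM) were low too. In these 3 genes 25.1%, 17.3% and 23.8% of all 50-base windows, the length of a read, also occurred in an annotated transcript of another gene, against a median of 0.487% and an upper quartile of 5.47% over protein-coding genes, and processed pseudogenes held 1.92 to 2.44% of all counts. The counting could have split or dropped reads shared between copies, which was not tested, and the levels of these genes are uncertain. Shared windows did not always go with low counts: Adora1 (17.4% shared) had a mean of 747 CPM and Glul (12.6% shared) 4346 CPM. The ribosomal protein that carries the tag, Rpl22, had 70.6 ± 6.48 TPM with 3.47% of its windows shared, and its paralog Rpl22l1 had 1.13 ± 0.381 TPM. Actb (2182 ± 143 TPM), Ywhaz (738 ± 72.5 TPM) and Atp5b (423 ± 22.7 TPM) were the highest of 18 usual reference genes. Among those, Gusb, a lysosomal enzyme (SD of log2 CPM 0.0945), Atp5b, a subunit of ATP synthase (0.0861), and Tbp, the TATA-binding protein (0.104), varied little between libraries.

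Glutamatergic markers were led, after Nrgn, by the kinase Camk2a (1001 ± 383 TPM) and Slc17a7 (972 ± 141 TPM), whose order held in only 3 of 8 libraries. The transcription factor Neurod2 had 391 ± 40.5 TPM and Slc30a3, which loads zinc into vesicles, 167 ± 16.7 TPM. All 14 listed genes had at least 1 CPM in every library. The other vesicular glutamate transporters were far lower, at 4.81 ± 1.16 TPM for Slc17a6, the form of thalamus and brainstem, and 0.848 ± 0.143 TPM for Slc17a8. The ratio of Slc17a7 to Slc17a6 was 162 to 246 over the libraries. Camk2a was the variable member (SD 0.51) and ranged over 1335 to 4059.8 CPM.

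Every layer list was represented. Among 8 layer 5 genes Pcp4, a calmodulin regulator, was highest (2395 ± 424 TPM), followed by the transcription factors Fezf2 (53.7 ± 7.09 TPM) and Bcl11b (49.6 ± 8.43 TPM), and Chrna6, a nicotinic receptor subunit, was lowest (0.309 ± 0.107 TPM). Of 12 layer 6 genes Rprm (619.9 ± 61.8 TPM), Hs3st4, a sulfotransferase (234 ± 19.8 TPM), and Tbr1, a transcription factor (95.3 ± 21.004 TPM), led, and Moxd1 was lowest (3.29 ± 0.404 TPM). The 11 upper-layer genes were lower, with Wfs1, a membrane protein of the endoplasmic reticulum (79.9 ± 11.2 TPM), Cux2 (30.2 ± 10.1 TPM) and Pou3f2 (29.5 ± 4.98 TPM), both transcription factors, on top and Otof at the bottom (1.61 ± 0.219 TPM). The order of Cux2 and Pou3f2 held in 5 of 8 libraries. Rprm exceeded Wfs1 in 8 of 8 libraries by a TPM ratio of 7.85 ± 1.02, although such ratios set single genes of different base composition side by side. Male library 2 held the highest value of 8 of the 11 upper-layer genes, against 3099 of the 14025 genes over the whole table.

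The 13 genes of the GABAergic list held 0.0506% of all counts. They summed to 477, 581, 504 and 469 CPM in male libraries 1 to 4 and 641, 422, 506 and 426 CPM in female libraries 1 to 4. The 14 glutamatergic genes summed to 14678 to 19237 CPM, but Nrgn alone had a mean of 11097 CPM. Such sums depend on which genes are listed and are not scaled to length. Sst, a marker of a GABAergic class on another list, had 869 TPM, against 972 TPM for Slc17a7. Slc32a1, the vesicular transporter (62.5 ± 17.6 TPM), and Gad1 (25.1 ± 8.93 TPM) were among the 3 highest and Adarb2 was lowest (0.853 ± 0.174 TPM). Slc17a7 exceeded Gad1 by a TPM ratio of 41.6 ± 10.3, with 22.7 in female library 1 as the lowest and 53.0 in female library 4 as the highest. Gad1 exceeded Gad2 in 8 of 8 libraries (1.31 ± 0.131). GABAergic genes varied more than most: the median SD of the list was 0.434, against 0.206 over all autosomal genes, and 4 of 13 reached the limit of 0.5 (background 3.13%). Female library 1 held the highest value of 10 of the 13 genes, against 1962 of the 14025 genes over the whole table. It was also highest for 9 of 11 striatal genes described further on, and Calb2, Eomes, Doc2g and Th, given below, stood apart in it. The part of tissue outside the cortex in these values was not tested. Sp8, a transcription factor of certain interneurons and of the olfactory bulb, had 0.941, 1.12, 1.26 and 1.14 CPM in male libraries 1 to 4 and 9.07, 0.729, 2.02 and 0.642 CPM in female libraries 1 to 4, so that this gene stood apart in female library 1.

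Among 18 genes that mark interneuron classes, the peptides Cck (1933 ± 161 TPM) and Sst (869 ± 132 TPM) were highest, and Lamp5, a membrane protein of neurogliaform cells, followed (259 ± 59.6 TPM). Cck is also made by glutamatergic neurons. Sst had 246, 173, 204 and 271 CPM in male libraries 1 to 4 and 207, 200.4, 267 and 173 CPM in female libraries 1 to 4, and Pvalb, the calcium-binding protein of fast-spiking interneurons, had 68.9, 62.1, 60.4 and 86.4 CPM in male libraries 1 to 4 and 59.7, 71.2, 75.1 and 51.0 CPM in female libraries 1 to 4. Both genes were highest in male library 4. Pvalb was lowest in female library 4, and Sst was equally low there and in male library 2 (173 CPM in each). The TPM ratio of Pvalb to Sst was steady at 0.214 ± 0.0220. Vip, which marks a further class, was low at 6.16 CPM at the lowest, 8.19 CPM at the median and 10.9 CPM at the highest. Chodl, a marker of long-range Sst neurons, was the lowest member (0.173 ± 0.0569 TPM). Of the list, 14 of 18 genes had at least 1 CPM in every library (58.9% over all protein-coding genes), and Calb2, Tac1 and Ndnf were the 3 variable ones (background 3.13%).

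Secreted peptides and granins were well represented. After Cck and Sst, the granin Chgb (564 ± 94.1 TPM), the enkephalin precursor Penk (548 ± 258 TPM) and Vgf (507 ± 48.3 TPM) were highest of 22 genes, and the order of Chgb, Penk and Vgf changed between libraries. Tac2 was lowest (1.99 ± 0.707 TPM). Penk was variable (181 to 619.7 CPM, SD 0.61), whereas Vgf was not (456 to 568.5 CPM, SD 0.10).

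The NMDA receptor, a glutamate-gated channel built from an obligatory Grin1 subunit and others, was represented by Grin1 at 101 ± 14.9 TPM, Grin2c at 48.8 ± 8.35 TPM and Grin2b at 39.2 ± 7.76 TPM. Grin1 had 326, 358, 356 and 273 CPM in male libraries 1 to 4 and 340.3, 304, 383 and 368 CPM in female libraries 1 to 4, and Grin2b had 309.6, 394, 333 and 248 CPM in male libraries 1 to 4 and 398, 301, 388 and 308 CPM in female libraries 1 to 4. Grin1 exceeded Grin2b in TPM in 8 of 8 libraries (2.62 ± 0.277), while Grin2c exceeded Grin2b in 6 of 8. The ratio of Grin2c to Grin2b was highest in male library 4 (1.96) and female library 2 (1.70) and lowest in female library 1 (0.813). The first 2 had the highest sums of astrocyte genes, given below, and female library 1 the lowest. Which cells the Grin2c RNA came from was not tested. Grin2a, the subunit that is known to accompany Grin2b in adult cortex, was the lowest of the 7 at 0.221 ± 0.0927 TPM. It had 0.952, 1.78, 1.28 and 0.734 CPM in male libraries 1 to 4 and 2.27, 0.813, 1.37 and 1.62 CPM in female libraries 1 to 4, near the 1 CPM limit and 126 to 268 times below Grin2b in TPM. Of the 50-base windows of Grin2a 11.6% were shared with other genes, and the GC content of its longest transcript was 44.8%, against 45.7% for Grin2b and 59.4% for Grin1. Why it was counted so low was not tested.

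Among AMPA, kainate and delta receptor genes, Grik5, an auxiliary kainate subunit (153 ± 13.0 TPM), and Gria1, an AMPA subunit (79.6 ± 13.5 TPM), were highest, and Grik3 (39.3 ± 9.24 TPM) and Gria2 (38.9 ± 7.47 TPM), the subunit that limits calcium entry, could not be ordered (4 of 8 libraries each way). The TPM ratio of Gria2 to Gria1 was 0.487 ± 0.0215 and below 1 in all 8 libraries. All 10 genes had at least 1 CPM in every library, and 8 were lowest in male library 4, against 34.3% of all genes. Of the metabotropic receptors, which signal through G proteins, Grm3 (46.4 ± 8.53 TPM), Grm2 (30.0 ± 7.64 TPM) and Grm4 (15.6 ± 3.59 TPM) were highest and Grm6, the receptor of retinal bipolar cells, was near 0 (0 to 0.0406 CPM). The 7 above 1 CPM on average were all lowest in male library 4.

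GABA-A receptors are chloride channels of mixed subunits. Gabrd (41.6 ± 6.80 TPM) and Gabra5 (36.5 ± 7.56 TPM), subunits of receptors outside the synapse, were among the 4 highest of 14 genes, in this order in 6 of 8 libraries. Gabra6, the subunit of cerebellar granule cells, was lowest at 0 to 0.0478 CPM, within the floor or just above it. Gabrb2 was 1 of 2 variable members (4.74 to 17.7 CPM) and was lowest in male library 4. The metabotropic GABA-B receptor was more abundant and steadier. Gabbr1 had 835, 843, 813 and 795 CPM in male libraries 1 to 4 and 897, 857, 825 and 832 CPM in female libraries 1 to 4 (SD 0.0522), and its partner Gabbr2 had 173 ± 29.5 TPM, against a mean of 312 TPM for Gabbr1. Of the glycine receptor, the anchoring subunit Glrb had 57.1 ± 18.4 TPM and Glra1 and Glra3 were at 1.08 TPM and 0.0233 TPM.

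**Figure D2:**
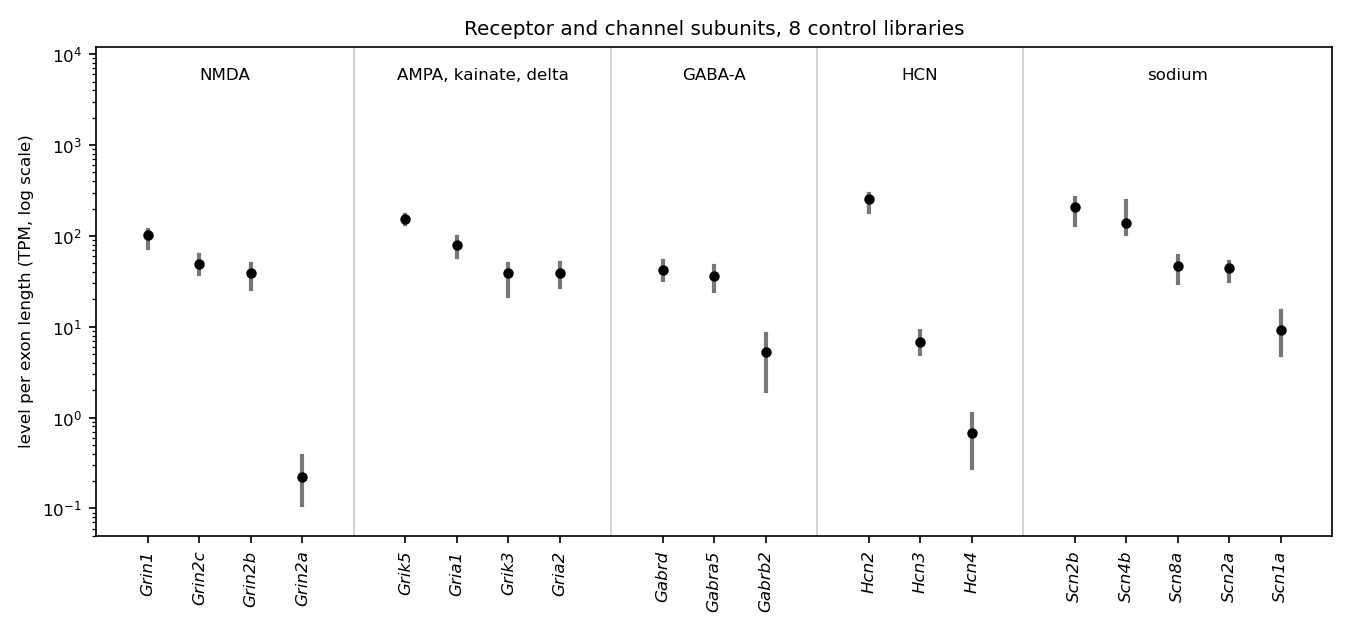
Level per exon length (TPM, log axis) of receptor and channel subunits described in the text, with a mean of at least 1 CPM; points give the mean of the 8 control libraries and grey bars the lowest to the highest library. Within a family the levels spanned a wide range: Grin1 averaged 101 TPM and Grin2a 0.221 TPM, and Hcn2 averaged 252 TPM and Hcn4 0.684 TPM.

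Of 29 monoamine receptor genes 18 had at least 1 CPM in every library, a share near the 58.9% over all protein-coding genes. Hrh3, a presynaptic histamine receptor, stood well above the rest (212 ± 27.7 TPM), followed by the adrenergic receptors Adra1d (36.4 ± 13.3 TPM) and Adra1b (35.4 ± 4.90 TPM), whose order held in 4 of 8 libraries. Htr1a was the highest serotonin receptor (9.93 ± 2.37 TPM), while Htr2a, the receptor on which psychedelic drugs act, had 0.526 to 3.38 CPM and an SD of 0.88. Drd3, a dopamine receptor, was lowest (0 to 0.0350 CPM). Of the acetylcholine receptors, the muscarinic genes Chrm1 (109 ± 24.3 TPM) and Chrm4 (87.6 ± 23.7 TPM) and the nicotinic genes Chrna4 (29.7 ± 6.18 TPM) and Chrnb2 (16.6 ± 4.10 TPM), which form one receptor type, were highest, and Chrm5 was lowest (0 to 0.0867 CPM). Chrm1 exceeded Chrm4 in 8 of 8 libraries. Chrm3 was among the most variable genes of the table, with 10.6, 18.002, 10.6 and 2.96 CPM in male libraries 1 to 4 and 13.6, 4.77, 9.002 and 14.4 CPM in female libraries 1 to 4. It was low in male library 4 and female library 2, the pair in which long genes were low, but the part of length in this was not tested.

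Of 32 receptors for peptides, purines and lipids, Adora1, the inhibitory adenosine receptor, was highest (374 ± 41.6 TPM) and steady at 734, 736, 771 and 703 CPM in male libraries 1 to 4 and 733, 663, 874 and 759 CPM in female libraries 1 to 4. It exceeded Adora2a, the receptor of striatal neurons, in 8 of 8 libraries by 3.71 to 17.4 times in TPM. Ntsr2, which is known from astrocytes, had 232 ± 42.8 TPM and Adcyap1r1, the receptor of the peptide PACAP, 66.3 ± 8.48 TPM. The somatostatin receptors Sstr2 (50.7 ± 9.15 TPM) and Sstr3 (40.0 ± 6.70 TPM), the cholecystokinin receptor Cckbr (45.7 ± 8.40 TPM) and the cannabinoid receptor Cnr1 (18.3 ± 6.27 TPM) were among the 10 highest of the 32. Oprm1, the mu opioid receptor, had 0.111 ± 0.0275 TPM, and Cnr2, known from immune cells, was lowest (0 to 0.108 CPM).

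Among the 3 highest of 14 sodium channel genes were the auxiliary subunits Scn2b (206 ± 43.1 TPM) and Scn4b (138 ± 44.8 TPM). Of the pore-forming genes Scn8a (46.6 ± 9.47 TPM) and Scn2a (44.3 ± 6.19 TPM) were highest and in this order in 6 of 8 libraries, and Scn1a, the main form of fast-spiking interneurons, had 9.26 ± 3.15 TPM. Scn4a, the channel of skeletal muscle, was lowest (0 to 0.0459 CPM). Scn2a exceeded Scn1a by 3.50 to 6.62 times in TPM. Of 17 calcium channel genes the auxiliary subunits Cacnb3 (383 ± 65.9 TPM), Cacnb1 (195 ± 12.5 TPM) and Cacnb4 (46.0 ± 13.1 TPM) came first and Cacna1s, of skeletal muscle, last (0.190 ± 0.0567 TPM). The highest pore-forming gene was Cacna1i, a T-type channel (16.3 ± 3.65 TPM), next to Cacna1a of the P/Q type (14.6 ± 3.36 TPM).

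Potassium channels set the resting and repolarising currents. Of 29 voltage-gated genes and their auxiliary subunits Kcnab2 (133 ± 29.8 TPM) and Kcna1 (106 ± 20.5 TPM) were among the 3 highest and Kcnh8 was lowest (0.109 ± 0.0563 TPM). Kcna1 had 165, 193, 171 and 128 CPM in male libraries 1 to 4 and 194, 146, 186 and 206 CPM in female libraries 1 to 4. Of the 27 members with a mean of at least 1 CPM, 24 were lowest in male library 4, against 34.3% of all genes, and none was highest there. Of 21 other potassium channels the inward rectifiers Kcnj4 (314 ± 56.6 TPM) and Kcnj10 (237 ± 34.4 TPM), a channel known from astrocytes, and the leak channel Kcnk1 (181 ± 14.9 TPM) were highest and Kcnk9 lowest (0.292 ± 0.175 TPM). HCN channels, which open on hyperpolarisation, were uneven. Hcn2, the highest (252 ± 35.0 TPM), had 278, 297, 309.6 and 221 CPM in male libraries 1 to 4 and 292, 256, 277 and 286 CPM in female libraries 1 to 4. Hcn3 had 6.86 ± 1.20 TPM, and Hcn4, the channel of cardiac pacemaker cells, was lowest (0.684 ± 0.286 TPM).

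Genes of transmitter release were abundant, and their median SD was 0.196, against 0.206 over all genes. The 32 listed genes summed to 25511 to 30230.0 CPM, or 2.83% of all counts, and 31 had at least 1 CPM in every library. Cplx2 (3252 ± 231 TPM), the vesicle protein Vamp2 (2808 ± 231 TPM) and Snap25 (2124 ± 294 TPM) were highest. Sv2a, the vesicle protein bound by the drug levetiracetam, had the smallest spread of the list (413 to 464 CPM, SD 0.0534). Sv2c was the lowest and the one variable member (0.992 to 3.90 CPM). The scaffold genes Bsn (96.1 to 286 CPM) and Pclo (46.2 to 84.8 CPM), which have long transcripts, ranged more widely.

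RNA of glia was present throughout. All 20 astrocyte genes had at least 1 CPM in every library, and their sum was 20892, 20649.5, 20644 and 27601 CPM in male libraries 1 to 4 and 15198, 25901, 20632 and 15760.3 CPM in female libraries 1 to 4. The highest values were in male library 4 and female library 2 and the lowest in female libraries 1 and 4. Apoe, Glul and Aldoc, a glycolytic enzyme (2040.2 ± 563 TPM), led the list and Aldh1l1, a folate enzyme of astrocytes, was lowest (25.1 ± 4.82 TPM). Glul, which makes glutamine, had 4389, 4008, 4181 and 6215 CPM in male libraries 1 to 4 and 2807, 5556, 4352 and 3257 CPM in female libraries 1 to 4. Slc1a2, the main glutamate transporter of astrocytes, had 2465, 3691, 3202 and 2479.7 CPM in male libraries 1 to 4 and 2058, 2733, 2928 and 2403 CPM in female libraries 1 to 4, with its highest value in male library 2. Its TPM were 0.471 to 0.800 times those of Slc17a7, while Snap25 exceeded Slc1a2 by 2.62 to 5.06 times. The 16 oligodendrocyte genes were steadier (6046, 6284, 6403 and 5778 CPM in male libraries 1 to 4 and 5946, 5284, 6603 and 5985 CPM in female libraries 1 to 4) and none was variable. Mbp, a structural protein of myelin, had 4033, 4282, 4133 and 3609.6 CPM in male libraries 1 to 4 and 3767, 3417, 4215 and 3757 CPM in female libraries 1 to 4 and exceeded Slc17a7 in TPM in 8 of 8 libraries (1.39 ± 0.147); Cnp (377 ± 32.3 TPM) and Mobp (330.2 ± 49.2 TPM), other myelin genes, came next and Aspa was lowest (3.58 ± 0.787 TPM). Of 8 genes of oligodendrocyte precursors, Olig1 (707 ± 97.6 TPM), Olig2 (110.2 ± 13.5 TPM) and C1ql1 (69.4 ± 11.0 TPM) were highest and Vcan lowest (0.450 ± 0.1203 TPM). The study reports that Aldh1l1, Gfap, Mbp and Mog were not enriched in the captured RNA. In its stained sections the HA tag overlapped with the neuronal marker NeuN. It showed no significant overlap with markers of astrocytes, oligodendrocytes, microglia or parvalbumin interneurons. Whether the glial RNA and the interneuron RNA counted here were bound to tagged ribosomes or carried over was not tested here.

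Genes of immune and vascular cells were much lower. The 16 microglial genes summed to 47.7, 50.2, 51.3 and 47.6 CPM in male libraries 1 to 4 and 50.8, 55.3, 93.2 and 54.9 CPM in female libraries 1 to 4, 9 of them had at least 1 CPM in every library (58.9% over all protein-coding genes), and Csf1r, a growth factor receptor (13.8 ± 1.41 TPM), C1qa (11.5 ± 8.03 TPM) and C1qb (9.02 ± 8.53 TPM), both of complement, were highest and Itgam lowest (0.252 ± 0.212 TPM). Female library 3 was apart, with the highest value of 10 of the 11 microglial genes with a mean of at least 1 CPM, against 1521 of all 14025 such autosomal genes. The 14 endothelial genes summed to 52.7, 49.6, 51.9 and 48.2 CPM in male libraries 1 to 4 and 52.0, 73.4, 55.4 and 55.7 CPM in female libraries 1 to 4, with Slc2a1, a glucose transporter (24.4 ± 1.72 TPM), Egfl7 (8.22 ± 0.761 TPM) and Esam (5.35 ± 1.21 TPM) on top and Vwf at the bottom (0.0642 ± 0.0416 TPM). All 6 with a mean of at least 1 CPM were highest in female library 2, against 1213 of all 14025 genes. Of 10 genes of pericytes and smooth muscle Rgs5 (8.93 ± 2.94 TPM), Pdgfrb (3.82 ± 0.963 TPM) and Tagln (3.76 ± 0.851 TPM) were highest and Anpep lowest (0 to 0.184 CPM). Fibroblast and meningeal genes summed to 4.63 to 16.1 CPM, with Dcn (1.71 ± 0.533 TPM), Igf2 (1.69 ± 1.61 TPM) and Col1a1 (0.228 ± 0.0456 TPM) first and Col3a1 last (0 to 0.0450 CPM). Of 10 lymphocyte genes Ighm, an immunoglobulin heavy chain, had 76.9, 62.6, 70.9 and 32.3 CPM in male libraries 1 to 4 and 79.2, 87.6, 81.0 and 86.3 CPM in female libraries 1 to 4, while the T and B cell genes Cd3e, Cd3d, Cd3g, Cd79a, Cd79b and Ms4a1 were at most 0.0862 CPM in any library. Igkc, an immunoglobulin light chain, had 0.0117 to 0.519 CPM, and Ptprc, the leukocyte antigen CD45, had 0 to 0.287 CPM. The defining lymphocyte receptors were thus at or near the floor in the same libraries in which Ighm was counted.

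**Figure D3:**
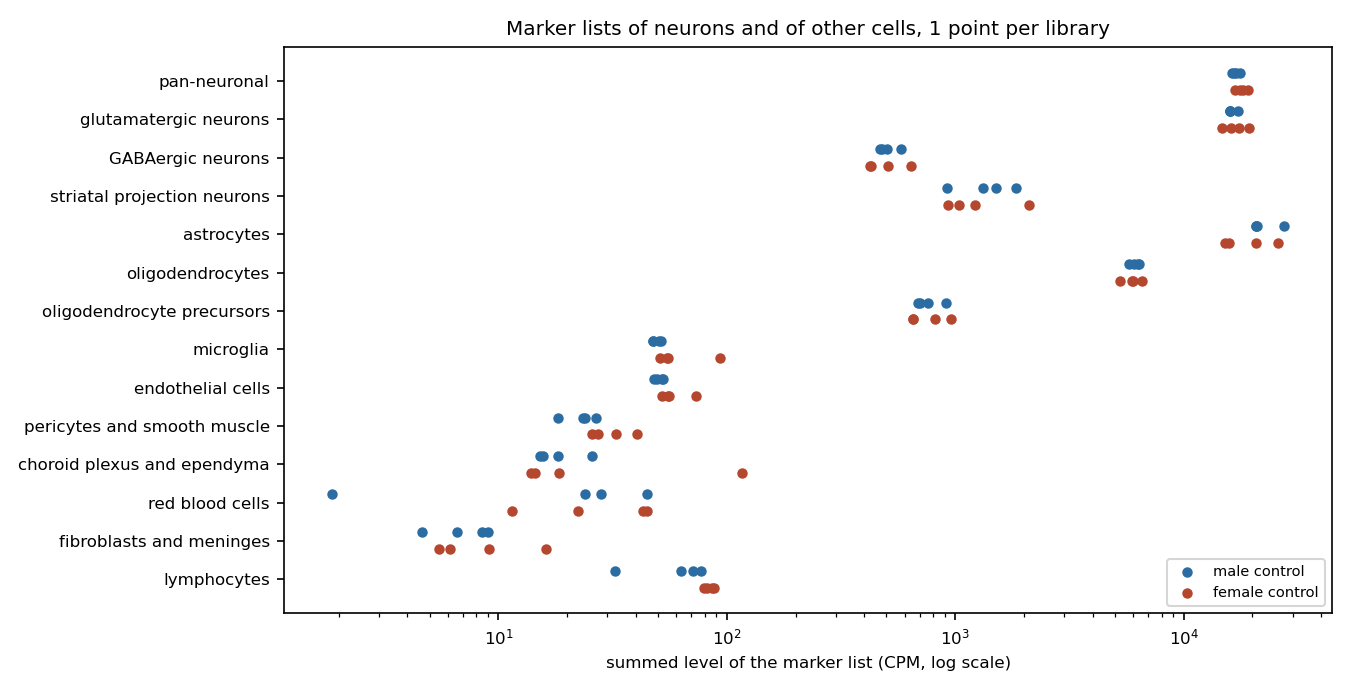
Summed level of each marker list (CPM, log axis), 1 point per control library (blue male, red female). Glutamatergic, astrocyte and oligodendrocyte lists lie far above those of microglia and vessels, and choroid plexus and ependyma reached 116 CPM in female library 3.

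Genes known from the choroid plexus, red blood cells and the striatum differed in level between libraries. Ttr, the thyroid hormone carrier made by the choroid plexus, had 0.0459, 4.14, 0.152 and 0.280 CPM in male libraries 1 to 4 and 0.119, 0.191, 89.1 and 0.135 CPM in female libraries 1 to 4. It was high in female library 3 alone, with a smaller value in male library 2, and the list of 8 choroid plexus and ependymal genes summed to 116 CPM there and to 13.9 to 25.8 CPM in the other 7. Foxj1 of ciliated cells (13.5 ± 2.99 TPM) and Clic6 of choroid plexus (2.56 ± 1.30 TPM) were the next members and Otx2 the lowest (0.0229 to 0.474 CPM). Hbb-bs, adult beta globin of red blood cells, had 35.9, 1.52, 22.7 and 19.5 CPM in male libraries 1 to 4 and 36.4, 37.4, 9.16 and 18.3 CPM in female libraries 1 to 4, so that male library 2 was lowest. Hbb-bs shares 53.2% of its windows with other genes, so its split from Hbb-bt (0.183 to 5.57 CPM) is uncertain; Hba-a2 (0.0711 to 1.33 CPM) and Hba-a1 (0.0914 to 1.73 CPM) were lower. Striatal genes also varied: the 11 listed genes summed to 1513, 918, 1319 and 1837 CPM in male libraries 1 to 4 and 2101, 1221, 1035 and 929 CPM in female libraries 1 to 4, 7 of 11 were variable (background 3.13%), and 9 were highest in female library 1. Ppp1r1b, the phosphatase inhibitor DARPP-32 (762 ± 172 TPM), and Penk (548 ± 258 TPM) were the highest of them and Isl1 the lowest (0.952 ± 0.471 TPM). Adora2a had 55.7, 26.4, 49.8 and 67.0 CPM in male libraries 1 to 4 and 104, 40.6, 29.8 and 23.2 CPM in female libraries 1 to 4. Penk, Adora2a, Drd1 and Drd2 also stand on lists described above. Of 20 genes of neurons outside the cortex and striatum 7 had at least 1 CPM in every library, a share below the 58.9% over all protein-coding genes. Pcp2 (15.9 ± 1.75 TPM), Pomc (8.20 ± 1.08 TPM) and Tcf7l2 (3.10 ± 0.667 TPM) were highest and Slc6a4, the serotonin transporter, lowest (0 to 0.0434 CPM).

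Among 8610 autosomal protein-coding genes with a mean of at least 10 CPM, Mbd1, a methyl-DNA binding protein, varied least (SD 0.0246) and had 16.8, 16.7, 16.7 and 16.99 CPM in male libraries 1 to 4 and 17.4, 16.9, 17.2 and 17.3 CPM in female libraries 1 to 4. Senp3, a protease of the SUMO pathway, had 56.7, 55.5, 55.0 and 53.6 CPM in male libraries 1 to 4 and 56.0, 54.2, 56.2 and 55.8 CPM in female libraries 1 to 4, and Gnpat, an enzyme of ether lipid synthesis, had 31.0, 31.6, 31.1 and 31.5 CPM in male libraries 1 to 4 and 31.4, 30.6, 32.4 and 32.4 CPM in female libraries 1 to 4. In each of these genes the highest library was within a factor of 1.06 of the lowest. The coefficient of variation over the libraries was 1.72% for Mbd1, 1.94% for Senp3 and 1.996% for Gnpat, while counting alone gives 2.56%, 1.42% and 1.88% for the same genes, so these spreads are near counting error and their order is not to be read. The other 12 of the 15 genes of smallest SD were Kcmf1, Gnaq, Elk4, Kpnb1, Hnrnpul2, Zmynd11, Senp6, Rab36, Gnb1, Cbx5, Polr2m and Osbpl2, with SDs of up to 0.0364. Gnb1 and Gnaq, subunits of G proteins, were the most abundant by CPM among them together with Polr2m (879 to 944 CPM, 364 to 390.2 CPM and 379 to 406 CPM). The 15th gene stood at 0.0364 and the next at 0.0368, so the limit of the list is one of rank.

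Of the 439 variable autosomal genes, 255 lay farthest from their median in male library 4, 202 of them below it. Without that library 231 genes were variable. The 15 protein-coding genes of largest spread with a mean of at least 10 CPM formed several kinds by the library that stood out. Ttr and Hbb-bs, described above, were the first. Serpina3n, a protease inhibitor of reactive astrocytes, had 80.5, 83.5, 82.1 and 62.0 CPM in male libraries 1 to 4 and 77.8, 72.8, 89.7 and 8.98 CPM in female libraries 1 to 4, so that female library 4 alone was low. Lrrc8b, a subunit of volume-regulated anion channels, had 8.20, 17.97, 12.1 and 3.40 CPM in male libraries 1 to 4 and 10.7, 4.602, 11.2 and 14.2 CPM in female libraries 1 to 4. Here male library 4 and female library 2 were low. Dlg2, a scaffold of excitatory synapses, had 49.7, 105, 75.6 and 23.6 CPM in male libraries 1 to 4 and 74.2, 31.6, 74.4 and 81.3 CPM in female libraries 1 to 4. With Chrm3 and Npcd (30.6 to 119 CPM, 93.7% of its windows shared with other genes) these genes had their lowest value in male library 4 and the second lowest in female library 2. The exon length of Npcd is 1453 bases, against a median of 4209 bases over autosomal genes with a mean of at least 1 CPM. Tac1, the precursor of substance P, had 19.7, 10.8, 14.2 and 29.3 CPM in male libraries 1 to 4 and 43.3, 13.7, 11.7 and 9.09 CPM in female libraries 1 to 4, and Calb2, which encodes calretinin, had 20.03, 12.8, 16.5 and 28.01 CPM in male libraries 1 to 4 and 62.6, 16.3, 20.6 and 11.7 CPM in female libraries 1 to 4. Like Adora2a, both were highest in female library 1. The 4 genes Fos, Arc, Junb and Btg2, also of this group, are immediate early genes. The 15th gene had an SD of 0.69, as did the next.

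**Figure D4:**
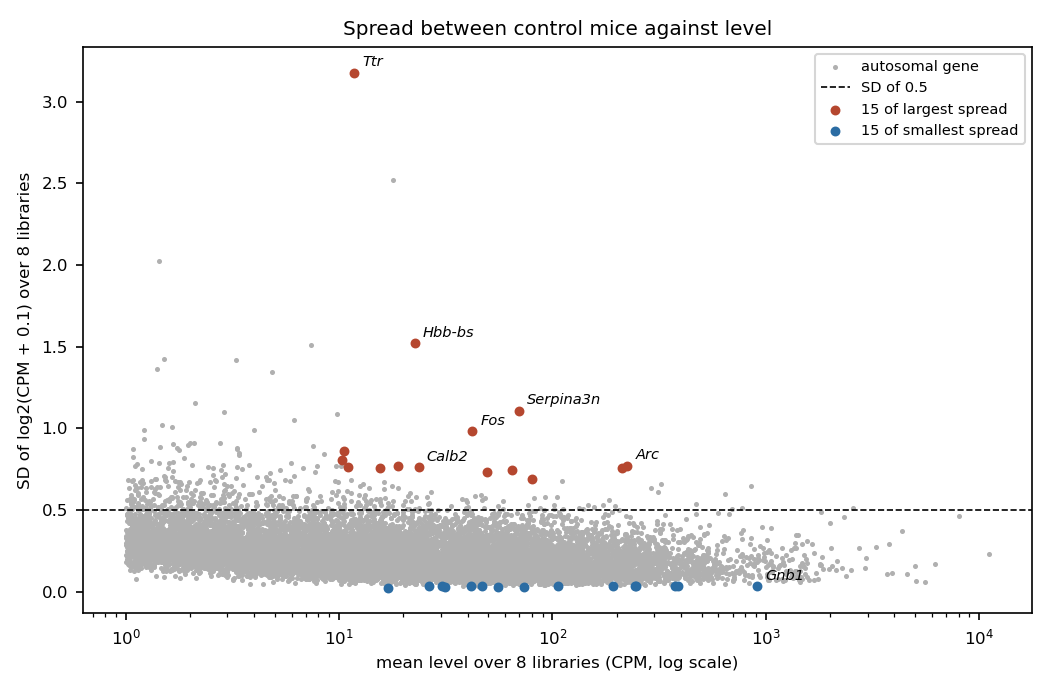
SD of log2(CPM + 0.1) over the 8 control libraries against mean level (CPM, log axis) for the 14025 autosomal genes with a mean of at least 1 CPM; red points are the 15 protein-coding genes of largest and blue points those of smallest spread among genes with at least 10 CPM, and the dashed line is the limit of 0.5 that 439 genes reached.

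Immediate early genes are switched on within minutes of neuronal activity or other stimulation, and many of their products are transcription factors. Here they differed between male and female control libraries. Of 30 such genes, 14 were higher in every male than in every female library, against 1.11% of the 14025 autosomal genes, and none was higher in every female library, against 0.791% of all genes. The median difference of the list was 0.64 on the log2 scale, male minus female, against -0.0020 over all genes. The 30 genes summed to 4186, 4253, 3821 and 3595 CPM in male libraries 1 to 4 and 2813, 2449.7, 2839 and 2978 CPM in female libraries 1 to 4, without overlap. Their median SD was 0.441, and 12 of 30 were variable (background 3.13%), 11 of which were among the 14. No test was made between these groups of mice and the list was chosen with these values known.

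Fos (ENSMUSG00000021250, chr12:85473890-85477273), a subunit of the AP-1 transcription factor, had 66.1, 95.8, 46.2 and 50.4 CPM in male libraries 1 to 4 and 17.5, 14.5, 23.6 and 21.8 CPM in female libraries 1 to 4. Junb, another AP-1 gene, had 302, 424, 230.1 and 266 CPM in male libraries 1 to 4 and 110.2, 106, 119 and 144 CPM in female libraries 1 to 4. For both, the lowest male library was well above the highest female library. Egr1, a zinc finger factor, had 857, 737, 787 and 629 CPM in male libraries 1 to 4 and 469.5, 314, 474 and 504 CPM in female libraries 1 to 4, and the nuclear receptor Nr4a1 had 149, 206, 123 and 136 CPM in male libraries 1 to 4 and 59.1, 58.3, 70.4 and 82.4 CPM in female libraries 1 to 4. Npas4, a factor that neurons induce upon calcium entry, had 8.57, 21.3, 8.13 and 10.9 CPM in male libraries 1 to 4 and 5.62, 2.89, 4.89 and 5.91 CPM in female libraries 1 to 4, with male library 2 far above the others. The other 9 genes without overlap were Egr2, Egr4, Fosb, Ier2, Dusp1, Gadd45b, Btg2, Sik1 and Ccn1. Arc, which acts at synapses, had 335, 469, 242 and 194 CPM in male libraries 1 to 4 and 115, 92.6, 196 and 153 CPM in female libraries 1 to 4, where female library 3 just exceeded male library 4. Jund (952 to 1290.0 CPM), the highest of the list in TPM (1875 ± 146 TPM), Jun (86.7 to 111 CPM) and Homer1 (103 to 159 CPM) overlapped between males and females, and Klf4 was lowest (1.12 ± 0.295 TPM). Female library 2 held the lowest value of 20 of the 30 genes, against 1176 of all 14025 genes. The count of 14 was 16 with TMM and 17 with DESeq2 scaling, and between 14 and 21 when single libraries were left out; 21 was reached without male library 4, when 392 of all autosomal genes were higher in every male library, against 155 with all 8 libraries.

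**Figure D5:**
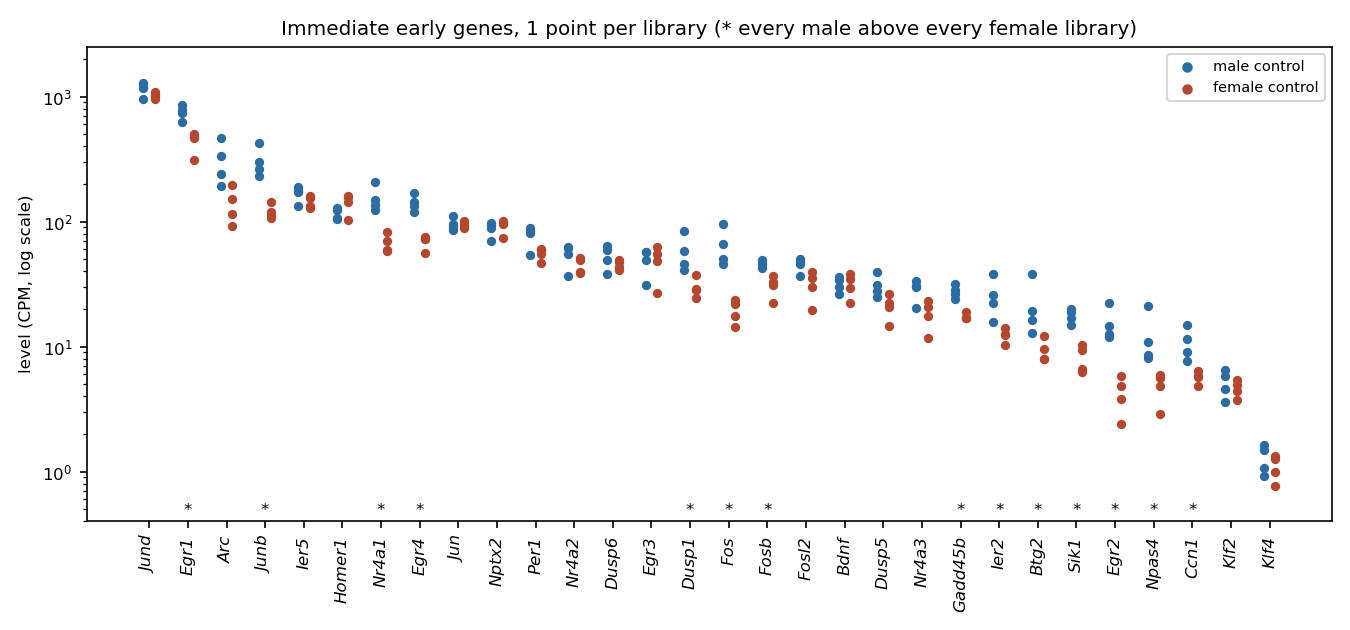
Level in CPM (log axis) of 30 immediate early genes, ordered by mean level, 1 point per control library (blue male, red female); stars mark the 14 genes in which every male library lay above every female library. Fos reached 95.8 CPM in males and at most 23.6 CPM in females.

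Promoters of these genes were read from RefSeq (GRCm38.p6) because the genes varied together. Windows of 300 bases were searched for a CArG box, the site of serum response factor, and for the cyclic AMP response element (CRE, TGACGTCA), each on both strands. The 24 immediate early genes with a window had 36 windows, of which 5 held a CArG box (4 of Egr2 and 1 of Dusp5) and 2 a CRE (Btg2 and Dusp1). Some windows of Egr2 overlap and hold the same box, so windows are not separate sites. By gene, 2 of the 24 held a CArG box and 2 a CRE. Over all 32851 windows, 1.63% held a CArG box and 1.79% a CRE, which are shares of windows and not of genes. The other 6 of the 30 listed genes were not searched. A match describes letters only. Shown are the 250 bases before the start, 5′ to 3′ on the strand of the gene, for the 3 genes without overlap that held a motif, with the motif in capitals, and for Fos, the gene of largest spread on the list after Egr2, which held neither in this window.
Egr2: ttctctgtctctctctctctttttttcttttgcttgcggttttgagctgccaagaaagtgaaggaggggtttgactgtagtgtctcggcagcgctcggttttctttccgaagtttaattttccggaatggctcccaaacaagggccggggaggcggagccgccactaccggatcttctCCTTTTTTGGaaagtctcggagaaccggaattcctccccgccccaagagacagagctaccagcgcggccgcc
Btg2: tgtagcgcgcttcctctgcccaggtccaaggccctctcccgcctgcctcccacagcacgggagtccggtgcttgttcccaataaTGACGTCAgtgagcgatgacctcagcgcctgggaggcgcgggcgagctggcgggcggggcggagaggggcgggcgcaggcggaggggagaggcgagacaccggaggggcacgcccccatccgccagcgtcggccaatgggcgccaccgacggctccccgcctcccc
Dusp1: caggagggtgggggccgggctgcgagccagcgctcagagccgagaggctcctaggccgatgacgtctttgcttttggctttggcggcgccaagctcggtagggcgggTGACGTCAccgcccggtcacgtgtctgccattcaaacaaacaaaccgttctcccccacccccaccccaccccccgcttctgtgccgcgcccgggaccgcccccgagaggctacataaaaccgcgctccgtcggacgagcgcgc
Fos: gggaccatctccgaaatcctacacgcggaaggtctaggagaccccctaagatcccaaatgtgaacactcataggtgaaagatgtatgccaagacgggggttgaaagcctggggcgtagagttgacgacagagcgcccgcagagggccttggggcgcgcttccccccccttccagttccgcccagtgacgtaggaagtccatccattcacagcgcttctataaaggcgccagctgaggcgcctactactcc
The Egr2 window (chr10:67537316-67537565, plus strand) held its CArG box at position -72 from the start. It is 1 of 5 annotated for the gene, of which 4, some of them overlapping, held such a box. The CRE began at position -166 in Btg2 (chr1:134079156-134079405, minus strand) and at -143 in Dusp1 (chr17:26508473-26508722, minus strand). The Fos window was chr12:85473640-85473889 on the plus strand. Egr2, a zinc finger factor, had 11.9 to 22.4 CPM in male libraries and 2.41 to 5.85 CPM in female libraries. Btg2, which slows cell division, had 12.9 to 38.2 CPM in male libraries and 7.91 to 12.2 CPM in female libraries. Dusp1, a phosphatase of MAP kinases, had 40.8 to 83.7 CPM in male libraries and 24.4 to 37.5 CPM in female libraries, so that none of the 3 overlapped.

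Finally, the score of glutamatergic genes (the mean of log2 CPM of the expressed members, centred over the libraries) was set against 6 other scores over the 8 libraries. Over all 8 libraries its largest correlation was with the astrocyte score (Pearson's r -0.719, exact permutation p = 0.0441, two-sided; Spearman's rho -0.548, exact permutation p = 0.171). After Benjamini-Hochberg adjustment over the 6 relations the exact p for r was 0.265, and r was -0.364 without male library 4 and female library 4, the pair farthest from the median, so the value rested on them. Scores of GABAergic neurons (r 0.153), oligodendrocytes (0.496), microglia (0.209), endothelial cells (0.107) and immediate early genes (0.0856) gave adjusted exact permutation p-values of 0.630 to 0.843, and Spearman's rho of 0.0476 to 0.548 with adjusted exact permutation p-values of 0.513 to 0.935. The sign of r was lost for GABAergic genes without female library 2 (-0.016), for microglia without female library 3 (-0.219), for endothelial cells without male library 4 (-0.549) and for immediate early genes without male library 2 (-0.123) or female library 2 (-0.153). The scores of immediate early genes did not overlap between the sexes, at 0.115 to 0.604 in male and -0.643 to -0.176 in female libraries. In a further comparison, chosen after the data were seen, each score was therefore centred within its sex and libraries were exchanged only within a sex (576 orders, exact permutation tests, two-sided). The relation with immediate early genes then had an r of 0.882 (exact p = 0.00521, adjusted over the 6 relations 0.0312) and a rho of 0.905 (exact p = 0.0104, adjusted 0.0625). Its r was 0.839 to 0.959 leaving out single libraries, 0.734 without male library 4 and female library 2, the pair farthest from the centre, and 0.836 with TMM sizes, where the adjusted exact permutation p was 0.0938. Centred in this way, r was 0.161 for GABAergic neurons, -0.674 for astrocytes, 0.470 for oligodendrocytes, 0.0243 for microglia and -0.174 for endothelial cells, with adjusted exact permutation p-values of 0.219 to 0.950. The adjustment over 6 relations does not cover the choice of the centred comparison. Male library 4 and female library 2, apart on the first principal component, had the lowest scores of their sex for glutamatergic and for immediate early genes. The part of a shift of whole libraries in their relation was not tested. CPM are shares of 1 total, so these scores are not free of each other.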

How the data were processed

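RNA was captured with HA-tagged ribosomes from the cortex of 17 mice and sequenced as paired-end reads of 50 bases after selection of polyadenylated RNA with a stranded kit. Per the labels and the methods of the study, the authors demultiplexed reads with bcl2fastq 2.17, checked them with FastQC, trimmed them with Trimmomatic and used QuasR to align them to mm10 and to count them per gene; the annotation release and the strand setting of the counting are not given in the sources used here. The deposited values are raw counts for 39017 genes, of which 37607 were matched by Ensembl identifier to GENCODE M21 (GRCm38, the same build as mm10); the other 1410 held 0.573 to 0.624% of counts. The 9 columns of EAE libraries were not used.

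Counts were divided by library totals to give CPM, and by exon length as well to give TPM. Genes on autosomes were used. A gene was called variable when the SD of log2(CPM + 0.1) over the 8 libraries was at least 0.5 and its mean at least 1 CPM. Genes named in the text were the 4 markers, members of 38 lists (with the 3 highest and the lowest member of each list described), the 15 genes of highest TPM and the 15 each of largest and smallest SD among protein-coding genes with at least 10 CPM, but some genes that these rules name are not reported here. Other names were chosen after their values were seen, and so is the male and female comparison of immediate early genes. The lists and tests were chosen with earlier results of these data known. One listed gene (Slc18a3) was not matched. Promoter windows on chromosome 18 were not searched. GC content came from the longest GENCODE transcript of a gene. Alternatives were TMM sizes (edgeR 4.0.16) and DESeq2 1.42.0 size factors (R 4.3.3), other filters and pseudocounts, and leaving out each library, and, for relations between scores, centring within each sex (chosen after the data were seen). With totals of at least 83664876 counts, counting error was small beside the spread between libraries for the median gene, and floors cover counting error only because reads carry no molecular identifiers. The labels number the libraries within each sex, and all spreads are between these samples.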

Additional observations from a re-analysis of the deposited data

Results flagged for a closer look

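The 8 control libraries were screened for a library set apart by a gap to its neighbour of more than 0.526 of the whole range, in 89 values (sums over lists and genes given by library). Chance alone sets apart about 1 in 20 groups of values, but many of these values were chosen for their spread or after being seen, and sums are counted beside their members (Ttr and Ighm), so this rate does not hold for the set. In all, 14 were found, 5 of them in female library 1, 4 in female library 3, 2 in male library 4 and 1 each in male library 2, female library 2 and female library 4.

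In female library 3 the sum over microglial genes was 93.2 CPM, against 47.6 to 55.3 CPM in the other 7 libraries. The sum over fibroblast and meningeal genes was 16.1 CPM, against 4.63 to 9.07 CPM. The sum over genes of choroid plexus and ependyma was 116 CPM, against 13.9 to 25.8 CPM, and Ttr had 89.1 CPM, against 0.0459 to 4.14 CPM. Endothelial genes summed to 73.4 CPM in female library 2, against 48.2 to 55.7 CPM elsewhere.

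Female library 1 was set apart by genes of particular neurons. Calb2 had 62.6 CPM, against 11.7 to 28.01 CPM, and Sp8 had 9.07 CPM, against 0.642 to 2.02 CPM. Eomes, a T-box transcription factor, had 10.3 CPM, against 0 to 0.397 CPM. Doc2g, a gene of the double C2 domain family with 56.0% of its 50-base windows shared with other genes, had 25.9 CPM, against 1.46 to 2.16 CPM. Th, which makes the precursor of dopamine, had 7.71 CPM, against 0.293 to 0.758 CPM.

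In male library 4 lymphocyte genes summed to 32.5 CPM, against 62.9 to 87.8 CPM, nearly all of it from Ighm, with 32.3 CPM, against 62.6 to 87.6 CPM. Npas4 had 21.3 CPM in male library 2, against 2.89 to 10.9 CPM, and Serpina3n had 8.98 CPM in female library 4, against 62.0 to 89.7 CPM. What set these libraries apart was not tested.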

How the results depend on the processing

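The number of variable autosomal genes depended on the rule. It was 439 as reported, 1390 with only a filter on detected counts, 117 among genes with a mean of at least 10 CPM, 160 with a pseudocount of 1 CPM, and 231 to 604 when single libraries were left out, with 231 reached without male library 4. The median SD was 0.206 as reported, 0.248 with only the filter on detected counts, 0.18 at a mean of at least 10 CPM, and 0.182 to 0.216 leaving out single libraries. Pearson's r between the glutamatergic score and other scores changed sign for GABAergic genes (0.153 as reported, -0.0129 with TMM sizes, -0.016 without female library 2, range -0.016 to 0.438 leaving out single libraries), microglia (0.209, -0.219 without female library 3, range -0.219 to 0.305), endothelial cells (0.107, -0.549 without male library 4, -0.174 with scores centred within each sex, range -0.549 to 0.723) and immediate early genes (0.0856, -0.0622 with TMM sizes, -0.123 without male library 2, -0.153 without female library 2, range -0.153 to 0.288, and 0.882 with scores centred within each sex, where it passed the threshold). The centred comparison was chosen after the data were seen. With TMM sizes its adjusted exact permutation p for r with immediate early genes was 0.0938, above the threshold of 0.05. For astrocytes r was -0.848 to -0.583 leaving out single libraries. The causes were not tested.

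With TMM sizes and DESeq2 size factors, all 76 sums over lists stayed within 1 SD of the reported value, and so did all 1108 levels of named genes. Leaving out single libraries moved the mean of a sum where 1 library stood apart: choroid plexus and ependyma had 29.8 CPM as reported and 17.4 CPM without female library 3. The rank of 181 of 554 named genes moved between TPM and CPM. The 14 immediate early genes higher in every male library were 14 to 21 leaving out single libraries, while the same count over autosomal genes was 155 as reported, 150 with TMM sizes and 164 with DESeq2 size factors, and 206 to 768 leaving out single libraries, where fewer libraries make separation easier. No paired analysis was possible because no groups were tested against each other. Depth did not limit the genes named at 1 CPM or more. Gene levels near the floor, genes with near copies, the unknown strand setting and the use of 1 exon length per gene limit comparisons of TPM.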

Other observations

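A few genes outside the lists differed in level between control mice in separate steps; they were chosen after their values were seen. Xaf1, an interferon-inducible gene, had 2.47, 1.76, 2.12 and 1.72 CPM in male libraries 1 to 4 and 16.1, 14.9, 17.5 and 2.52 CPM in female libraries 1 to 4, so that 3 of 4 female libraries were far above the other 5 libraries. Exoc3l2, a relative of an exocyst subunit, had 3.56, 0.620, 0.455 and 0.350 CPM in male libraries 1 to 4 and 3.12, 2.96, 0.199 and 0.811 CPM in female libraries 1 to 4, with male library 1 and female libraries 1 and 2 as the highest. Gm4735, a processed pseudogene with 96.0% of its 50-base windows shared with other genes, had 71.6, 1.63, 1.30 and 1.29 CPM in male libraries 1 to 4 and 62.4, 1.66, 1.27 and 1.66 CPM in female libraries 1 to 4, so that male library 1 and female library 1 stood apart from the rest. With so many shared windows, which gene these reads came from is uncertain. Male library 1 and female library 1 were thus high for both Exoc3l2 and Gm4735, while female library 2 was high for Exoc3l2 only.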
